A study of Mus musculus with 34 samples.

Results

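Cholesterol synthesis in pup liver was followed through 7 genes. Hmgcs1, Idi1, Fdps, Fdft1, Sqle and Lss encode enzymes of the mevalonate and sterol pathway, and Srebf2 encodes SREBP-2, the transcription factor that drives this pathway. The probes were those whose systematic name on the array is a RefSeq accession of 1 of these symbols. They numbered 10 and covered 6 of the 7 genes, out of 16535 genes that could be named on the array and 41174 probes tested. No probe was matched to Idi1, so Idi1 was not analysed here. Hmgcs1, Lss, Fdft1 and Srebf2 had 2 probes each and Fdps and Sqle had 1, and a value given for a gene is that of the probe with the higher mean Cy5 signal. None of the 7 genes acts in LDL uptake itself, and genes of uptake are described from a separate list.

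Liver RNA was taken from 34 C57BL/6 mouse pups on postnatal day (PND) 15, 17 of each sex. The study asked how a short-term change in thyroid hormone alters gene expression, in order to find genes that the hormone regulates directly. Each pup's RNA was labelled with Cy5 and hybridised to a 2-colour Agilent whole genome array against a commercial universal mouse reference RNA labelled with Cy3, so that every value is a log2 ratio of pup to reference. All pups received an intraperitoneal injection 4 h before tissue was collected. Control pups received saline (4 males, 4 females). Hyper pups received 50 µg of thyroxine (T4) and 5 µg of triiodothyronine (T3) per 100 g of body weight (5 males, 5 females). Hypo pups received saline and were nursed by dams whose drinking water held the goitrogens methimazole (0.05%) and perchlorate (1%), which block hormone synthesis in the thyroid (4 males, 5 females). The labels give PND 13 as the first day of this water, whereas the methods give 3 days that begin 1 day earlier. Hypo+ pups had dams on the same water and received 20 µg of T4 and 2 µg of T3 per 100 g (4 males, 3 females). According to the methods, hypo+ pups were kept on the basis of their serum T4, so this group was selected on a hormone reading, and the goitrogens reached the pups only by way of the dam. The leading digits of each animal number were read here as a litter code, which the labels do not state. No such code held more than 1 treatment, and each group of 1 sex held 3 to 5 codes, so litters lie within treatments. Pups are named below by the animal number of their label.

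Hepatocytes make cholesterol from acetyl-CoA by way of mevalonate. Hmgcs1 makes HMG-CoA, Fdps makes farnesyl diphosphate, Fdft1 joins farnesyl units into squalene, Sqle oxidises squalene and Lss closes the ring to lanosterol. When sterols in the endoplasmic reticulum are low, the escort protein Scap carries SREBP-2 to the Golgi, where proteases release its active part, which binds sterol regulatory elements of these genes. Thyroid hormone is known in the liver for lowering blood cholesterol and for raising Srebf2 expression.

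The promoters of 3 members are shown because sterol regulatory elements, CCAAT boxes and GC boxes are the sites through which SREBP-2 and its partners are known to act. Each runs from 250 bases before to 50 bases after the RefSeq start of transcription (GRCm38.p6, plus strand) and is written 5′ to 3′. Capitals mark matches on either strand to TCACNCCAC (a sterol regulatory element core), CCAAT (the box of that name), GGGCGG (GC box) or AGGTCA (a nuclear receptor half-site). None of these matches overlapped another.
Hmgcs1, chr13:119690101-119690400: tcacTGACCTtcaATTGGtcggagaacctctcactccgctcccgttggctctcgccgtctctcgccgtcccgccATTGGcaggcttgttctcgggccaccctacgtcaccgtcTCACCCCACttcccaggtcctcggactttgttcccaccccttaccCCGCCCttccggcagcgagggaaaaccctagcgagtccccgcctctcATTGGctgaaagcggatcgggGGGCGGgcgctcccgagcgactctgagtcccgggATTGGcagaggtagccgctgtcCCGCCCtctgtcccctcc
Lss, chr10:76531355-76531654: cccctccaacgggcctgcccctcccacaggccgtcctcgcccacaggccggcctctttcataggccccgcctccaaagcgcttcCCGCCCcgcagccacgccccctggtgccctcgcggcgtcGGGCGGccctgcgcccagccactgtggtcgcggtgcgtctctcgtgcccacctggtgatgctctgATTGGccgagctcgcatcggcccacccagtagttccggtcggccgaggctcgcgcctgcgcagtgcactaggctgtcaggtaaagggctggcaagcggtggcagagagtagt
Srebf2, chr15:82147019-82147318: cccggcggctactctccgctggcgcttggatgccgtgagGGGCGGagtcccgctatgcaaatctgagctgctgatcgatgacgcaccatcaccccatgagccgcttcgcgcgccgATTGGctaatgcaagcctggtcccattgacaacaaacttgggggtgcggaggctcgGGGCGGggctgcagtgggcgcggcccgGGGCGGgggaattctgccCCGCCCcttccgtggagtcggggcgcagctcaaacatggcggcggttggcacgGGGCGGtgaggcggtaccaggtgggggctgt
TCACNCCAC matched in Hmgcs1 alone among these 3, from base -137 on the forward strand, and 1.24% of 32851 RefSeq mouse promoters of this length held it. Hmgcs1 held 4 CCAAT matches, Lss 1 and Srebf2 1, against 37.4% of all promoters with at least 1. GGGCGG matched 3 times in Hmgcs1, 2 times in Lss and 5 times in Srebf2, and 35.7% of all promoters held it. AGGTCA matched in Hmgcs1 from base -246 on the reverse strand, and 16.3% of promoters held it. CACGTG (E-box, 7.15% of promoters) and the DR4 arrangement of AGGTCA, a spacing that thyroid hormone receptors can bind (0.0152%), had no match in the 3 windows. The Idi1 promoter, the only other member promoter in the reference table, held CCAAT 2 times and GGGCGG 1 time. Of the 15 other synthesis enzymes listed below, 13 had a promoter entry, and 12 of these held CCAAT, 12 held GGGCGG and 0 held TCACNCCAC. A match is a description of letters in this window and not a binding site.

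The median Cy5 signal per array ran from 146 to 199 and the median Cy3 signal from 64 to 100. The upper limit of the negative control spots in Cy5 was 85.0 to 106. Hepatocyte markers were well above background on all arrays (8 of 8 genes measured). Dio1, the deiodinase that thyroid hormone induces in liver, was lower in hypo than in control pups by 1.46 in males and 1.77 in females on the log2 scale, and higher in hypo+ than in hypo pups by 1.52 and 2.02 (limma, Benjamini-Hochberg adjusted p = 0.0124, 0.00923, 0.0015 and 0.00201). Pancreatic acinar markers, which liver should lack, stood apart in 4 pups: their mean log2 ratio over 16 genes was 2.26 to 4.71 in control males 522 and 832, control female 831 and hypo+ female 543, and 0.63 to 0.94 in the other 30. These markers were lower in treated pups than in controls in 16 of 16 genes for hyper and hypo pups of either sex. Results without the 4 pups are given for some of the calls below, and shares over all probes include these pups. Without them, the number of probes with a limma adjusted p under 0.05 fell from 31 to 1 in hyper against control males. It fell from 40 to 2 in hypo against control males and from 242 to 49 in hypo+ against control pups, both sexes averaged. It rose only in hypo+ against hypo males (152 to 165) and in hypo+ against hypo pups averaged over the sexes (1119 to 1204). The part of these markers in the results was not tested. Erythroid markers (11 genes) had a median log2 change between -0.12 and 0.04 in all 12 comparisons.

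The 10 probes differed in signal. The bright probes had mean Cy5 signals of 7069 for Hmgcs1 (A_51_P146941), 2206 for Fdft1 (A_51_P485946), 1322 for Fdps (A_51_P379798), 441.2 for Srebf2 (A_51_P377508) and 427.1 for Sqle (A_51_P450487), all well above background on 34 of 34 arrays. The 2 Lss probes were close in signal, 318.1 (A_52_P168028) and 316 (A_51_P296487). The dimmer probes of Hmgcs1 (144.3, A_52_P388072), Srebf2 (137.8, A_52_P302001) and Fdft1 (107.3, A_52_P136138) lay near the negative controls, and the last was well above background on 24 arrays. No member probe was saturated on any array. On GRCm38.p6 the genes lie at chr13:119690351-119708260 (Hmgcs1), chr3:89093588-89101967 (Fdps), chr14:63145150-63181687 (Fdft1), chr15:59315092-59331193 (Sqle), chr10:76531565-76557139 (Lss) and chr15:82147269-82205379 (Srebf2).

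Hmgcs1 and Fdft1 had the largest differences of the 6 genes between hypo pups and either control or hypo+ pups, with opposite signs. Hmgcs1 was highest in hyper pups and lowest in hypo pups, and Fdft1 was highest in hypo pups and lowest in hyper males. Of 80 tests within the sexes (10 probes, 8 comparisons) 1 passed an adjusted p of 0.05, Hmgcs1 in hypo+ against hypo females, where 0.556% of all probes passed. With both sexes averaged, 2 more passed, both in hypo+ against hypo pups (2.72% of all probes), where Fdft1 and the dimmer Lss probe were lower in hypo+. All tests were limma's moderated test with Benjamini-Hochberg adjustment over the 41174 probes of a comparison. In whole liver, fewer cells of a type and less RNA per cell cannot be told apart.

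**Figure D1:**
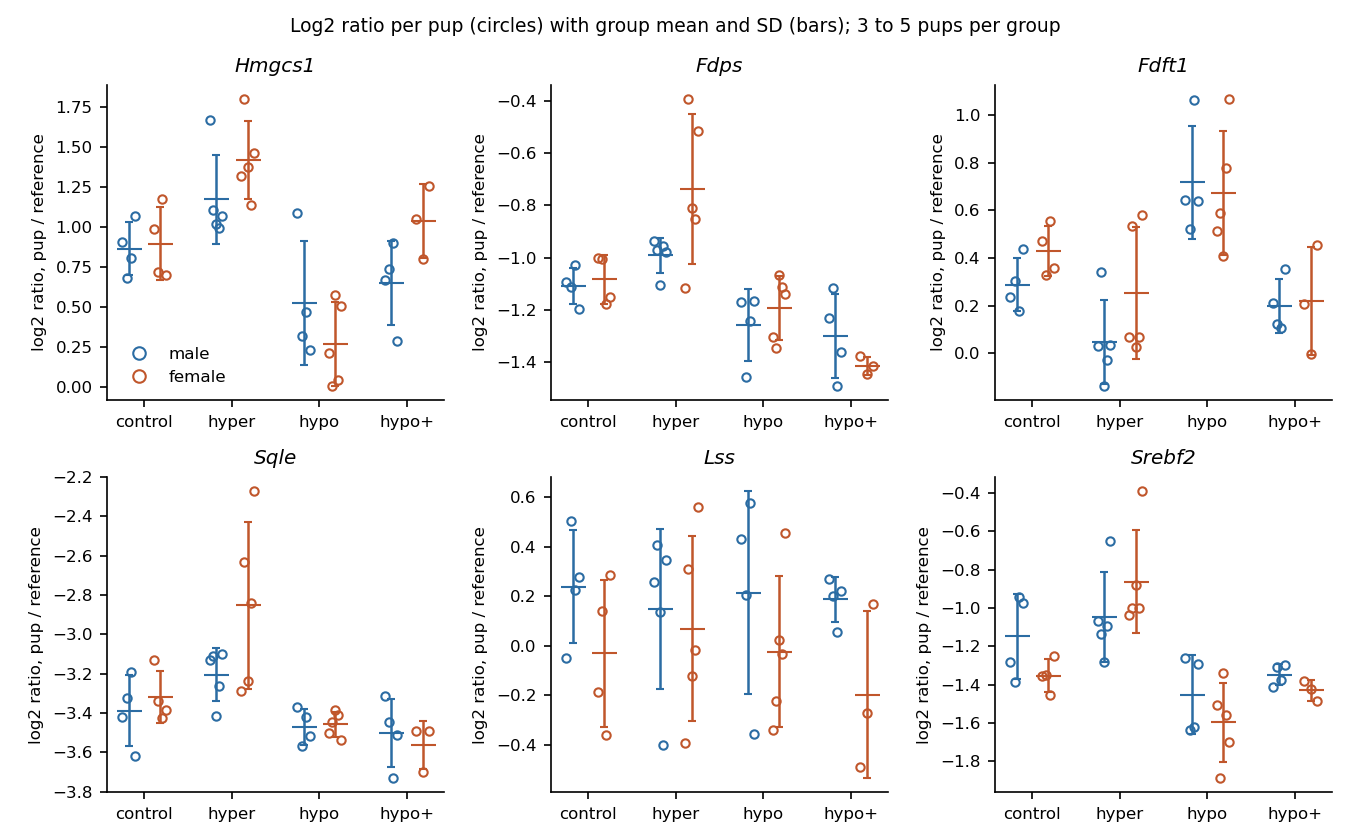
Log2 ratio of pup to reference (vertical axis) for the brighter probe of each gene by treatment group (horizontal axis), with 1 circle per pup, males in blue and females in orange, and bars for the group mean and SD. Hmgcs1 was highest in hyper females (mean 1.42) and lowest in hypo females (0.27), whereas Fdft1 was highest in hypo males (0.72).

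Hmgcs1 encodes the cytosolic HMG-CoA synthase, at the entry of the pathway. In males its log2 ratio was 0.90, 0.68, 0.80 and 1.07 in control pups and 1.67, 1.11, 1.02, 1.00 and 1.07 in hyper pups. In hypo males it was 1.09, 0.32, 0.47 and 0.23, and in hypo+ males 0.67, 0.74, 0.90 and 0.28. Hyper male 864 stood above the rest, and hypo male 891 lay at the level of the highest control. The male groups overlapped except that all hyper males lay above all hypo+ males. For hyper against hypo+ pups no test was run and no share over all probes was computed. In females the ratio was 0.99, 0.72, 1.17 and 0.70 in control pups and 1.32, 1.80, 1.37, 1.14 and 1.46 in hyper pups. In hypo females it was 0.21, 0.0052, 0.57, 0.039 and 0.50, and in hypo+ females 1.05, 0.80 and 1.26. All 5 hypo females lay below all 4 control females and all 3 hypo+ females, while hyper and control females overlapped.

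Group means of Hmgcs1 fell in the order hyper females 1.42 ± 0.25 (SD, n = 5), hyper males 1.17 ± 0.28 (n = 5), hypo+ females 1.04 ± 0.23 (n = 3), control females 0.90 ± 0.23 (n = 4), control males 0.86 ± 0.16 (n = 4), hypo+ males 0.65 ± 0.26 (n = 4), hypo males 0.53 ± 0.39 (n = 4) and hypo females 0.27 ± 0.26 (n = 5). Each of the 7 neighbouring pairs in this order differed by less than the larger SD of the pair. Hypo+ exceeded hypo females by 0.77 (SE 0.16, 1.71-fold, limma adjusted p = 0.0425). In males the same difference was 0.12 (SE 0.18, limma adjusted p = 0.912). The female effect minus the male effect was 0.64 (SE 0.25, unadjusted p = 0.016, limma adjusted p = 1), so a difference between the sexes did not pass the test. Of 12 other settings 7 kept the female call, with differences from 0.66 to 1.00 (limma adjusted p from 0.0297 to 0.973). It was lost when hypo female 743 (adjusted p = 0.103), 721 (0.0703) or 316 (0.113) or hypo+ female 763 (0.141) or 601 (0.247) was left out, and held without the acinar-high pups (0.89, limma adjusted p = 0.0497), a setting that left 2 hypo+ females.

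Averaged over both sexes, Hmgcs1 was 0.45 higher in hypo+ than in hypo pups (SE 0.13, limma adjusted p = 0.062), 0.49 lower in hypo than in control pups (SE 0.13, limma adjusted p = 0.0601) and 0.41 higher in hyper than in control pups (SE 0.12, limma adjusted p = 0.164). None of these 3 passed the threshold, and without the acinar-high pups the first did (0.51, limma adjusted p = 0.0475). Between hypo+ and control pups the difference was -0.04 (SE 0.13, limma adjusted p = 0.972). On single slides that held both groups of 1 sex, Hmgcs1 was higher in hyper than in control pups on 8 of 8 slides (median 0.38, lowest 0.0015). It was lower in hypo than in control pups on 6 of 7 (median -0.36) and higher in hypo+ than in hypo pups on 4 of 4 (median 0.57). Acinar-high pups 522, 832 and 831 were among the controls on these slides. Acinar-high hypo+ female 543 was among the hypo+ pups on them. Both points also hold for the genes below. The dimmer Hmgcs1 probe followed the brighter one across the 34 arrays (Pearson r = 0.819, with both probes read on the same arrays). That probe differed by 0.40 (SE 0.13, limma adjusted p = 0.444) between hyper and control females and by 0.24 (SE 0.14, limma adjusted p = 0.768) between hypo+ and hypo females.

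Fdps encodes farnesyl diphosphate synthase. Its log2 ratio in males was -1.09, -1.11, -1.03 and -1.20 in control pups and -0.94, -0.97, -1.11, -0.96 and -0.98 in hyper pups. In hypo males it was -1.17, -1.46, -1.24 and -1.17, and in hypo+ males -1.23, -1.11, -1.49 and -1.36. Hyper and control males overlapped, and hyper male 498 was the lowest of its group. All hyper males lay above all hypo and hypo+ males (lowest hyper -1.106, highest hypo+ -1.115). Hyper pups were not compared with these groups by a test, and no share over all probes was computed. In females the ratio was -0.9995, -1.01, -1.18 and -1.15 in control pups and -1.12, -0.39, -0.81, -0.85 and -0.52 in hyper pups. In hypo females it was -1.30, -1.34, -1.07, -1.11 and -1.14, and in hypo+ females -1.38, -1.45 and -1.41. The 3 hypo+ females were tightly grouped (-1.41 ± 0.03, SD) and lay below every control female and every hypo female. The Fdps ratio averaged over both sexes differed by -0.26 (SE 0.08, limma adjusted p = 0.128) between hypo+ and control pups and by 0.23 (SE 0.07, limma adjusted p = 0.209) between hyper and control pups.

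Fdft1 encodes squalene synthase, the first enzyme of the branch committed to sterols. Its log2 ratio in males was 0.24, 0.30, 0.18 and 0.44 in control pups and 0.029, 0.34, -0.14, -0.030 and 0.036 in hyper pups. In hypo males it was 0.64, 0.52, 1.06 and 0.64, and in hypo+ males 0.21, 0.12, 0.11 and 0.35. All 4 hypo males lay above all control and all hypo+ males. In females the ratio was 0.47, 0.33, 0.56 and 0.36 in control pups and 0.068, 0.53, 0.025, 0.067 and 0.58 in hyper pups. In hypo females it was 0.51, 0.59, 0.41, 0.78 and 1.07, and in hypo+ females 0.21, -0.0013 and 0.45. The female groups overlapped, hypo females 316 and 575 standing above all other females.

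With both sexes averaged, Fdft1 fell by 0.48 on the log2 scale in hypo+ against hypo pups (SE 0.10, limma adjusted p = 0.00494). The within-sex differences were -0.52 in males (SE 0.11, limma adjusted p = 0.0631) and -0.45 in females (SE 0.16, limma adjusted p = 0.335), and the female effect minus the male effect was 0.06 (SE 0.19). This fall passed the test in every fit that left out 1 array and did not pass when arrays were only centred on their median instead of being loess-normalised (adjusted p = 0.3). Without the acinar-high pups it was -0.43 (limma adjusted p = 0.0282), and on all 4 slides that held both groups of 1 sex hypo+ was lower (median -0.45). Hypo pups differed from control pups by 0.34 (SE 0.10, limma adjusted p = 0.116), with hypo higher on 6 of 7 slides, and hyper pups by -0.21 (SE 0.09, limma adjusted p = 0.689). Of the 7 neighbouring pairs of group means, which ran from hypo males (0.72 ± 0.24, n = 4) to hyper males (0.05 ± 0.18, n = 5), only control females (0.43 ± 0.11) and control males (0.29 ± 0.11) differed by more than the larger SD. The dimmer probe of Fdft1 did not follow the brighter one across arrays (r = -0.297), and its difference between hypo+ and hypo pups was 0.09 (SE 0.04, limma adjusted p = 0.294). The Fdft1 result therefore rests on 1 probe.

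Sqle encodes squalene epoxidase, a rate-limiting step. Its log2 ratio in males was -3.42, -3.33, -3.19 and -3.62 in control pups and -3.13, -3.11, -3.42, -3.26 and -3.10 in hyper pups. In hypo males it was -3.37, -3.57, -3.42 and -3.52, and in hypo+ males -3.32, -3.44, -3.73 and -3.51. All male groups overlapped. In females the ratio was -3.13, -3.34, -3.43 and -3.38 in control pups and -3.29, -2.63, -3.24, -2.84 and -2.27 in hyper pups. In hypo females it was -3.50, -3.45, -3.39, -3.41 and -3.54, and in hypo+ females -3.49, -3.70 and -3.49. Hyper females 783, 585 and 861 lay above all other females and hypo+ females below all control females. Hyper exceeded control by 0.47 in females (SE 0.15, limma adjusted p = 0.503) and by 0.32 with both sexes averaged (SE 0.10, limma adjusted p = 0.164).

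Lss encodes lanosterol synthase. Its 2 probes of like signal gave different pictures (r = 0.396 over 34 arrays). The first had group means from 0.24 ± 0.23 in control males to -0.20 ± 0.34 in hypo+ females, with an SD of 0.23 to 0.41 in 7 of the 8 groups and of 0.09 in hypo+ males, and a difference between hyper and control pups of -0.0024 (SE 0.14, limma adjusted p = 1). The second was -1.07, -0.75, -1.05 and -0.85 in hypo+ males and -0.34, -0.82, -0.45 and -0.68 in hypo males. In females it was -1.02, -0.93 and -0.86 in hypo+ pups and -0.68, -0.91, -0.50, -0.73 and -0.48 in hypo pups. The 2 treatments overlapped by 1 hypo pup in each sex, and averaged over the sexes this probe fell by 0.31 in hypo+ against hypo pups (SE 0.09, limma adjusted p = 0.0414). The first Lss probe gave -0.09 (SE 0.15, limma adjusted p = 0.874), and without the acinar-high pups the second gave -0.32 (limma adjusted p = 0.0771). The second probe passed under 3 of 8 other settings (limma adjusted p from 0.0312 to 0.892) and in 6 of the 16 fits that left out 1 array (0.0155 to 0.104).

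Srebf2 encodes the factor that acts on the genes above. Its log2 ratio in males was -1.28, -1.39, -0.94 and -0.97 in control pups and -1.07, -1.13, -1.28, -1.09 and -0.65 in hyper pups. In hypo males it was -1.26, -1.63, -1.62 and -1.29, and in hypo+ males -1.41, -1.31, -1.38 and -1.30. The male groups overlapped except that all hyper males lay above all hypo+ males (lowest hyper -1.283, highest hypo+ -1.297). Hyper and hypo+ pups were not compared by a test, and no share over all probes was computed for them. In females the ratio was -1.35, -1.35, -1.46 and -1.25 in control pups and -1.04, -1.001, -0.88, -0.9995 and -0.39 in hyper pups. In hypo females it was -1.50, -1.89, -1.34, -1.56 and -1.70, and in hypo+ females -1.38, -1.42 and -1.49. All 5 hyper females lay above all 4 control females, and hypo females lay lowest as a group with some overlap. Hyper exceeded control females by 0.49 (SE 0.12, limma adjusted p = 0.195), and in males the difference was 0.10 (SE 0.12, limma adjusted p = 1). The female effect minus the male effect was 0.39 (SE 0.17, unadjusted p = 0.0316, limma adjusted p = 1). With both sexes averaged, Srebf2 differed by 0.29 (SE 0.09, limma adjusted p = 0.219) between hyper and control pups and by -0.27 (SE 0.10, limma adjusted p = 0.265) between hypo and control pups. Its dimmer probe gave group means between -0.35 and -0.26 and was unrelated to the brighter one (r = -0.0554). That dimmer probe was close in signal to the dimmer Hmgcs1 probe (137.8 and 144.3), and both were well above background on 34 arrays. The Srebf2 differences therefore rest on 1 probe.

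**Figure D2:**
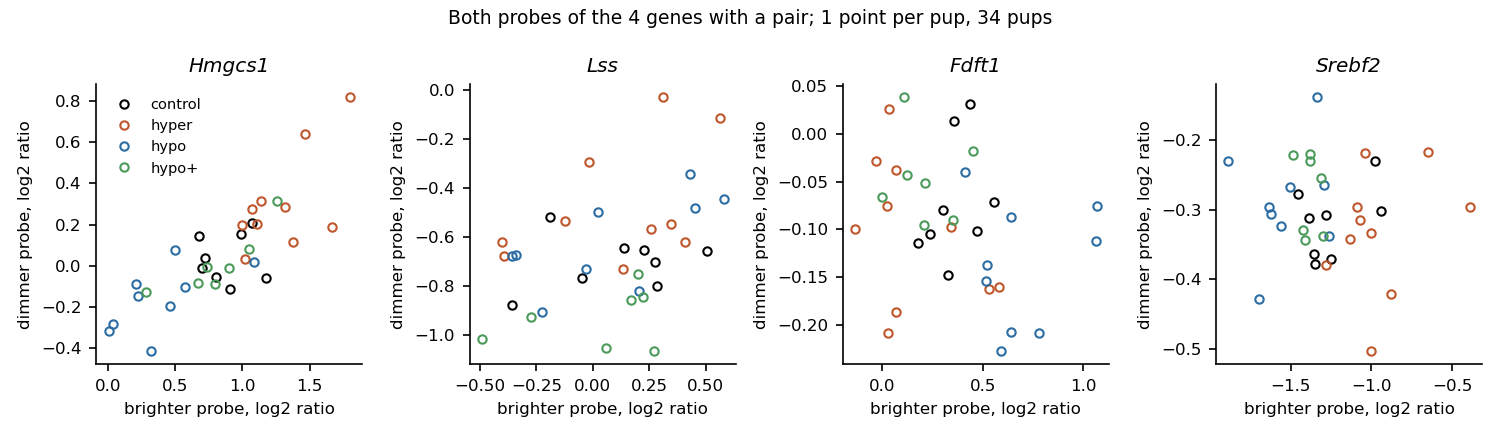
Log2 ratio of the dimmer probe (vertical axis) against the brighter probe (horizontal axis) of the 4 genes with 2 probes, with 1 circle per pup coloured by treatment. The Hmgcs1 pair varied together (r = 0.819, 34 arrays), the Lss pair less so (r = 0.396), and the Fdft1 (r = -0.297) and Srebf2 (r = -0.0554) pairs did not.

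Read by comparison, the hyper pups differed from control pups by positive values in 7 of 10 probes in females and 6 of 10 in males. 0 of 10 probes passed in either sex (limma, 6 and 1 at an unadjusted p under 0.05), where 0.158% of all probes passed in females and 0.0753% in males. Averaged over the sexes 0 of 10 passed (7 unadjusted), against 0.692% of all probes. The median over the 6 genes was 0.41 in females and 0.11 in males, beside a median of -0.0062 and 0.0006 over all probes. Srebf2 was the 1 member probe of 10 whose hyper females all lay above the control females, against 1.3% of all probes.

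In hypo against control pups, 8 of 10 probes were lower in males and 6 of 10 in females. 0 of 10 passed in males, females or the average of both (limma, 3, 1 and 4 at an unadjusted p under 0.05), where 0.0971%, 0.155% and 0.95% of all probes passed. Hmgcs1 was the 1 of 10 probes with all hypo females below all control females, against 0.925% of probes, and Fdft1 the 1 with all hypo males above all control males, against 1.5%. The gene medians were -0.12 in both sexes, beside 0.0021 and -0.0016 over all probes in males and females. Hepatocyte markers were higher in hypo than in control males in 8 of 8 genes (median 0.33) and lower in 7 of 8 in females (median -0.10), with none past the test (limma, 1 and 0 at an unadjusted p under 0.05), and their part was not tested.

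In hypo+ against control pups, 9 of 10 probes were lower in males and 6 of 10 in females. 0 of 10 passed in males, females or the average (limma, 2, 1 and 2 at an unadjusted p under 0.05), where 0.0267%, 0.0219% and 0.588% of all probes passed. Fdps and Sqle were the 2 probes with all hypo+ females below all control females, against 3.46% of all probes. On slides with both groups of 1 sex, Lss, Fdps, Fdft1 and Srebf2 were lower in hypo+ on 5 of 5 slides each. Hmgcs1 was higher in hypo+ on 2 of the 5 and Sqle on 1. Acinar-high pups 522, 832 and 831 were the controls on some of these slides, and acinar-high hypo+ female 543 lay on the slide of 831. No share over all probes was computed for slides. Proliferation markers were lower in 5 of 5 genes in each sex (median -0.38 in males and -0.44 in females), and Top2a passed with both sexes averaged (-0.46, limma adjusted p = 0.0356). Hepatocyte markers were higher in 8 of 8 genes in males (median 0.36) and 7 of 8 in females (median 0.16), with 0 past the test (limma, 2 and 0 at an unadjusted p under 0.05). The part of either list was not tested.

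In hypo+ against hypo pups, 5 of 10 probes were higher and 5 lower in each sex. In females 1 of 10 passed, where 0.556% of all probes did, and in males 0 of 10 (2 unadjusted), where 0.369% did. Averaged over the sexes 2 of 10 passed, against 2.72% of all probes. Groups did not overlap for Hmgcs1 in females, where hypo+ was higher (2.35% of all probes), for Fdps in females, where hypo+ was lower (2.71%), and for Fdft1 in males, where hypo+ was lower (2.41%). Proliferation markers moved with the same contrast. For each sex 5 of 5 were lower in hypo+ than in hypo pups (male median -0.29, female median -0.36), with 0 past the test. The averaged fit, in which Fdft1 and the dimmer Lss probe passed, called 2 of these 5 markers as lower (limma, 4 at an unadjusted p under 0.05). Their median there was -0.33. The part of these markers was not tested. The comparisons with controls share the control pups, and those with hypo+ share the hypo+ pups. For none of the 41174 probes did the female effect differ from the male effect after adjustment (limma, with 633, 534, 656 and 986 probes at an unadjusted p under 0.05 in the order of the 4 comparisons above).

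**Figure D3:**
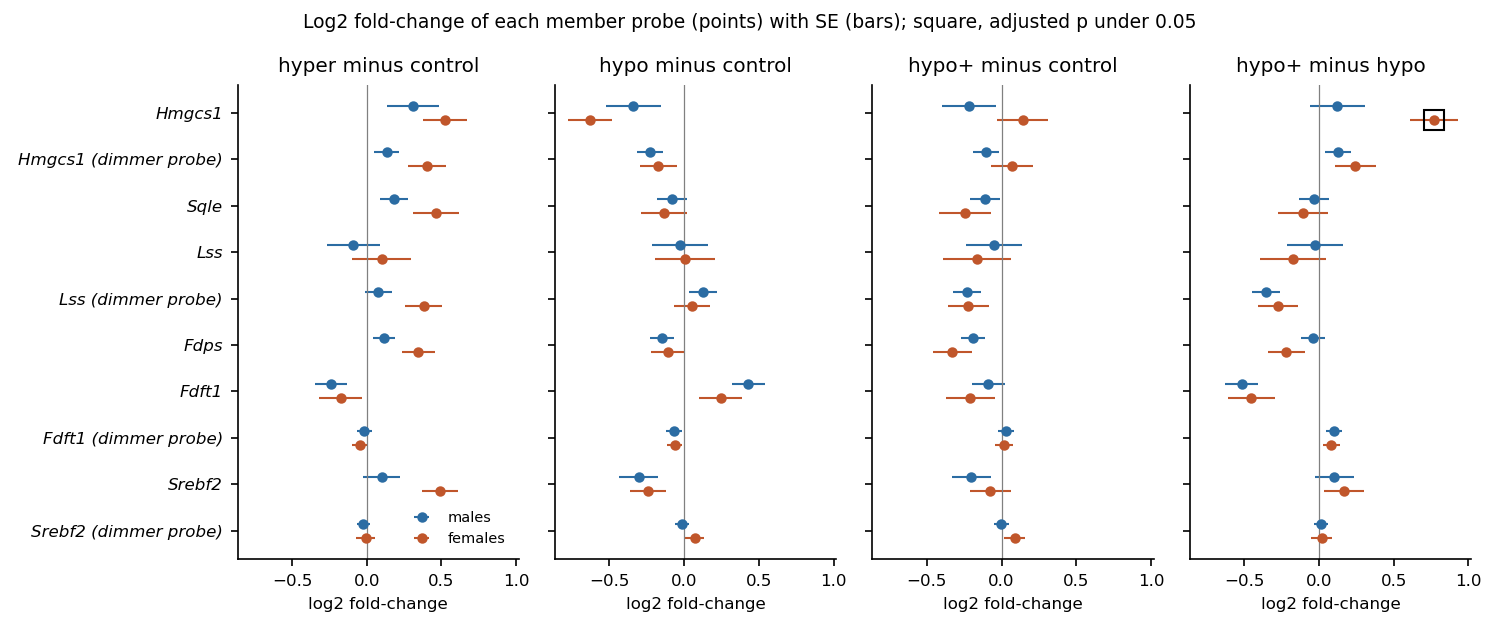
Log2 fold-change (horizontal axis) of each of the 10 probes in the 4 comparisons, males in blue and females in orange, with bars for the SE and a square around the value that passed an adjusted p of 0.05. Hmgcs1 in hypo+ against hypo females (0.77) is the one marked value, and Fdft1 lies opposite to Hmgcs1 in hyper, hypo and hypo+ against hypo pups.

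Within groups the members correlated positively from pup to pup, weakly in some pairs, and no background of other gene pairs was computed. Over the 6 genes, 11 of 15 pairwise correlations across the 34 arrays were above 0 (Pearson r from -0.433 for Fdft1 with Srebf2 to 0.891 for Sqle with Fdps). After the mean of each group was subtracted, 15 of 15 were above 0 (0.0266 to 0.746, median 0.394), including 0.255 for Fdft1 with Hmgcs1, which was -0.415 before. These values describe arrays that share reference, depth and scan and carry no test. Hyper females 585 and 783 were the 2 highest of their 5 for Hmgcs1, Fdps, Fdft1, Sqle and Lss, and 783 was also highest for Srebf2, where 585 ranked 4.

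Beyond the members, 15 enzymes of the same pathway were measured. Most of their differences were positive in hyper pups and negative in hypo and hypo+ pups, and few passed the test. In hyper against control pups 11 of 15 were higher in males (median 0.09) and 13 of 15 in females (median 0.19). In hypo against control pups 10 of 15 were lower in males and 15 of 15 in females (median -0.11 in each). In hypo+ against control pups 14 of 15 were lower in males (median -0.12) and 13 of 15 in females (median -0.19), beside -0.007 and -0.0048 over all probes. By the brightest probe, 0 of 15 passed the test within either sex.

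With both sexes averaged, Msmo1 and Sc5d, late enzymes of the pathway, passed by their brightest probe. Msmo1, the C-4 methylsterol oxidase, ran from -1.94 to -1.36 in control females, from -1.40 to -0.48 in hyper females and from -2.52 to -2.04 in hypo females. It ran from -1.93 to -1.42 in control males, from -1.44 to -1.02 in hyper males and from -2.39 to -2.06 in hypo males, so hypo pups lay below control pups in each sex without overlap, as did 1.59% of all probes in males and 0.925% in females. Msmo1 rose by 0.58 in hyper pups (SE 0.11, limma adjusted p = 0.00334) and fell by 0.61 in hypo pups (SE 0.11, limma adjusted p = 0.00234) against control pups. Sc5d, a sterol desaturase, fell by 0.54 in hypo against control pups (SE 0.10, limma adjusted p = 0.00256) and rose by 0.38 in hypo+ against hypo pups (SE 0.10, limma adjusted p = 0.0354). For Cyp51, the lanosterol demethylase, the hyper difference was 0.28 (SE 0.10, limma adjusted p = 0.338). Msmo1 kept its hyper call in 7 and its hypo call in 6 of 8 other settings, while the hypo+ call of Sc5d held in 4 of 8 and in 6 of 16 fits that left out 1 array.

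Among 8 genes that regulate SREBP, Scap passed as lower in hypo pups and Scap and Erlin1 passed in hypo+ against hypo pups, in opposite directions. Scap fell by 0.33 in hypo against control pups (SE 0.07, limma adjusted p = 0.0113). It rose by 0.39 in hypo+ against hypo pups with both sexes averaged (SE 0.07, limma adjusted p = 0.00169) and by 0.52 in females (SE 0.11, limma adjusted p = 0.0455). Erlin1, an endoplasmic reticulum protein that holds back SREBP activation, fell by 0.46 in the same contrast (SE 0.08, limma adjusted p = 0.000716). Insig1, the sterol-sensitive anchor of Scap and a SREBP target, differed by 0.09 in hyper and by -0.22 in hypo pups (SE 0.10 for both, limma adjusted p = 1 and 0.565). The Scap and Erlin1 calls averaged over both sexes were lost when arrays were only centred on their median, and the hypo call of Scap held in 5 of 8 other settings and its female call in 5 of 12. The list medians stayed between -0.05 and 0.04 in all 12 comparisons.

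Of 7 genes of LDL uptake, 1 passed a test, with both sexes averaged. Vldlr, the VLDL receptor, rose by 0.76 in hypo against control pups (SE 0.17, limma adjusted p = 0.0168), where 0.95% of all probes passed. Within the sexes it did not pass (0.74 in males and 0.78 in females, limma adjusted p = 0.609 and 0.26). In hypo and in hyper against control pups, 3 of 7 differences were above 0 and 4 below with both sexes averaged. In hypo+ against control pups 6 of 7 differences were above 0 and 1 below with both sexes averaged (median 0.10), and none passed, with 3 and 1 at an unadjusted p under 0.05. The Vldlr call held in 6 of 8 other settings, not without the acinar-high pups (0.68), and was lost among the 17 fits that left out 1 array only without hypo male 311 (0.68, limma adjusted p = 0.0575).

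**Figure D4:**
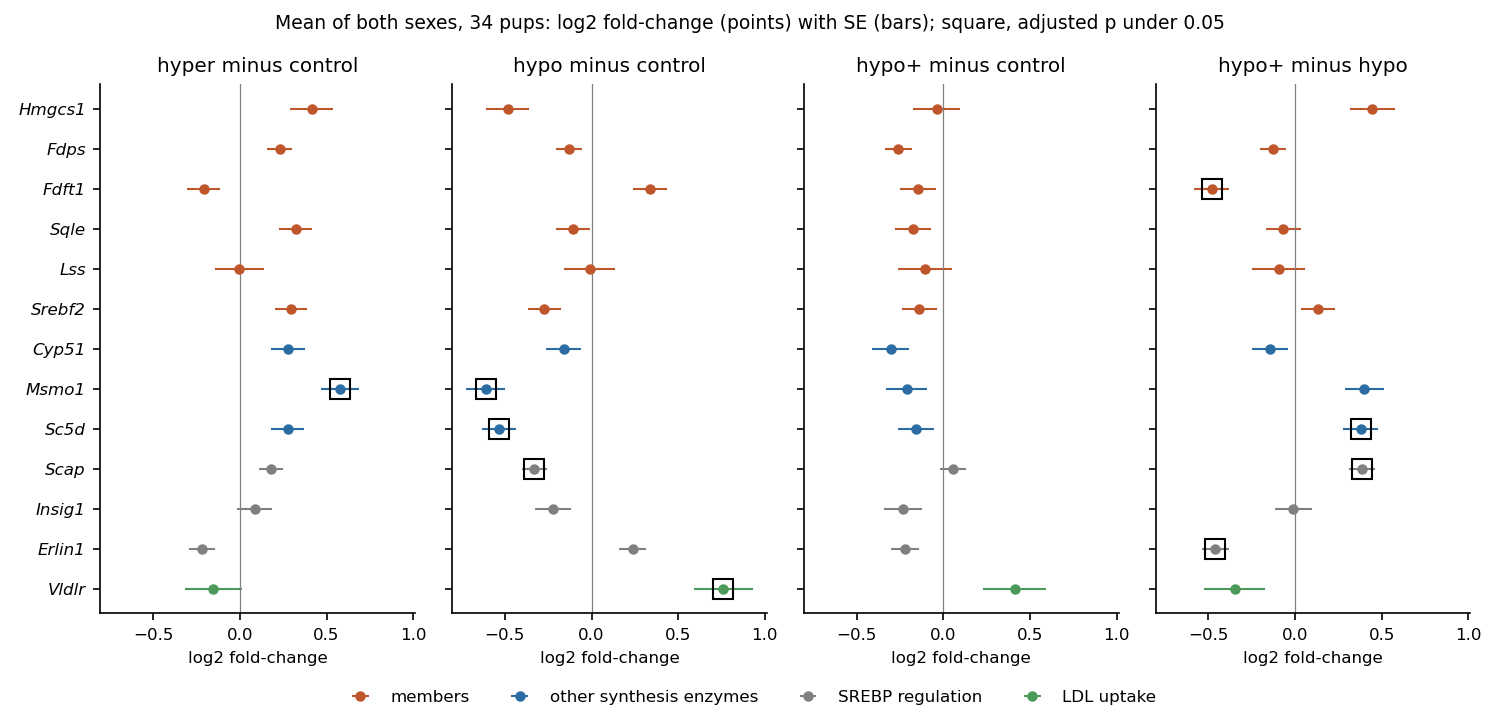
Log2 fold-change averaged over both sexes (horizontal axis) with its SE for the 6 members and for genes of synthesis, SREBP regulation and LDL uptake, in 4 comparisons of the 34 pups. Squares mark an adjusted p under 0.05, among members on Fdft1 alone (-0.48, hypo+ against hypo), since the dimmer Lss probe is not plotted.

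In the lists of sterol transport (12 genes) and fatty acid synthesis (8 genes), Cyp7a1, the rate-limiting enzyme of bile acid synthesis, rose by 0.87 in hypo+ against hypo pups (SE 0.23, limma adjusted p = 0.029), and its other probe gave 0.50 (SE 0.17, limma adjusted p = 0.135). The call held in 5 of 8 other settings and in 7 of 16 fits that left out 1 array. Stard4, a sterol carrier and SREBP-2 target, fell by 0.40 (SE 0.08, limma adjusted p = 0.0167) and by 0.39 (SE 0.08, limma adjusted p = 0.0252) in hypo+ against control pups by its 2 dimmer probes, and its brightest probe gave -0.28 (limma adjusted p = 0.365). The first of these fell by 0.30 in hypo+ against hypo pups (SE 0.08, limma adjusted p = 0.0354). In that contrast the other dimmer probe gave -0.26 (SE 0.08, limma adjusted p = 0.0757). The brightest Stard4 probe gave -0.11 (SE 0.12, limma adjusted p = 0.78). The 2 dimmer probes had mean Cy5 signals of 168.8 and 143.2, near the negative controls, and the brightest had 2107. Me1 and Thrsp, lipogenic genes known as thyroid hormone targets, passed in hypo+ against hypo pups at 0.81 and 1.38 with both sexes averaged (limma adjusted p = 2.9e-07 and 0.00452). In size the changes of Cyp7a1, Me1 and Thrsp exceeded that of any member in this contrast, where Fdft1 was -0.48 and Hmgcs1 0.45.

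The genes most like the members were sought outside the members and all gene lists used here, so no listed pathway gene could appear. The mean of the 6 member log2 ratios was correlated with 15592 probes (11477 named genes) that were well above background on all 34 arrays. Highest were Csl (r = 0.826), Fads1 (0.825), Ppm1g (0.8), Aars (0.793) and Sae1 (0.785). Lowest were Jade1 (-0.742), Txnrd1 and Luc7l2 (-0.707 each) and Snapc4 and Ubqln2 (-0.698 each). After the group means were subtracted the highest were Pebp1 (0.809), Oaz2 (0.798), Sae1 (0.774), Ormdl3 (0.763) and Gcsh (0.755), and the lowest Ovgp1 (-0.753), Hnrnph2 (-0.693), Luc7l2 (-0.66), Cpeb3 (-0.646) and Commd2 (-0.64). Sae1 and Luc7l2 were named in both rankings.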

How the data were processed

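Liver RNA of 34 pups (17 of each sex) was measured on Agilent 2-colour arrays on 11 slides scanned on 6 days, with the pup in Cy5, the reference in Cy3 and no dye swap. Each array's scanner output, deposited by the authors and written by Agilent Feature Extraction 10.1.1.1, gives median signal intensity and local background per spot and a background-subtracted, dye-normalised log10 ratio. The authors also deposited a table of log2 ratios, described in the methods as loess-normalised medians, which served as an alternative. According to the methods the authors set aside outlier arrays before analysis, and these were not analysed here.

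Log2 ratios of median signals were loess-normalised within each array without background correction, spots marked as outliers were dropped, and 43379 spots outside controls were averaged to 41174 probes (R 4.3.3, limma 3.58.1, data.table version 1.17.8). Probes were named through RefSeq accessions, with 16806 of 33541 systematic names matched to a symbol. The methods analysed the sexes apart by MAANOVA. Here limma fitted the 4 groups of each sex, and 1 fit of all 34 arrays gave the mean of both sexes and the sex interaction, with a litter code presumed from the animal number as a random block (correlation 0.0714). P-values were adjusted over all probes by Benjamini-Hochberg with a threshold of 0.05. Pups are separate animals, and the number of arrays limits the precision. The negative control limit was the 5% trimmed mean of 153 spots plus 3 trimmed SDs. The limma step was tested on simulated data.

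Named were every member probe, pathway genes with a probe past the threshold, Cyp51, Insig1, Dio1 and Thrsp. Also named were the 5 genes most and least like the members, ranked outside the members and lists. Values of 3 further genes of the lists are not reported here. The members and lists were chosen with earlier results of these data known. Alternatives were normexp with an offset of 50, median centring, the deposited values, the scanner ratio, the Cy5 channel alone, a filter at the negative controls, slide or scan day as a block, other sample sets, no litter block, and each array left out. Scan day, the set without 4 acinar-high pups and the left-out arrays of the averaged fit were added after seeing the data.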

Additional observations from a re-analysis of the deposited data

Results flagged for a closer look

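In groups of 4 or 5 pups, 1 pup stood apart from the others of its group in 5 of the 70 sets of probe and group tested, where chance gives about 1 in 20. The gap to the nearest pup is given as a share of the group's range. Hmgcs1 in hyper male 864 was 1.67 on the log2 ratio scale, with the nearest male at 1.11 (share 0.837). Fdps in hyper male 498 was -1.11, below the nearest at -0.98 (0.756). Srebf2 in hyper female 783 was -0.39, above the nearest at -0.88 (0.756). By the dimmer Srebf2 probe, near the negative controls, control male 391 was -0.23 against -0.30 for the nearest (0.876) and control female 394 was -0.28 against -0.36 (0.863).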

How the results depend on the processing

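No called value of a member probe changed sign. The median change of the 6 genes, took the other sign in 4 of 128 refits under another setting and 3 of 132 that left out 1 array, all in hypo+ against hypo pups (-0.13 to 0.11 in males). Counts of called probes moved in 12 of 128 refits. In hypo+ against hypo males the count went from 0 to 1 with slide as a random block (Fdft1, -0.54, limma adjusted p = 0.0396), and in females from 1 to 0 under median centring, the authors' values, the scanner log ratio, slide as a fixed block and only the compared groups. With both sexes averaged, hypo against control went from 0 to 1, in each case Hmgcs1, with no litter block (-0.48), the Cy5 channel alone (-0.59) and only probes above the negative controls (-0.49). Hypo+ against hypo went from 2 to 1 under normexp and the authors' values and to 0 under median centring.

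Leaving out each array in turn gave 0 to 2 called probes in hypo+ against hypo males (2, Fdft1 and Lss, without hypo male 576), 0 to 1 in hypo+ against hypo females, 0 to 2 in the averaged hyper against control (2, Sqle and Fdps, without hyper female 621), 0 to 1 in the averaged hypo against control (1, Hmgcs1, without hypo male 891 or hypo female 893 or 575) and 1 to 3 in the averaged hypo+ against hypo. In the last, 1 probe was called without hypo+ male 546 or 761, hypo male 311, hypo female 743 or hypo+ female 763 or 601. The cause of these moves was not tested. Animal numbers name single pups and pair none across groups, whereas slides held several groups and were fitted as a block. The dimmer probes of Hmgcs1, Fdft1 and Srebf2 all lay near the negative controls, where small differences cannot be read.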
